A study of Mus musculus with 28 samples.

Results

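Whole kidneys of mice lacking both Fcgr2b and Rhbdf2 were compared with whole kidneys of mice lacking Fcgr2b alone, which asks which parts of the kidney profile that follows Fcgr2b loss differ once iRhom2 is also absent. The libraries were chosen by their genotype label, 4 with FcR2b-/- Rhbdf2-/- (the double mutant) and 4 with FcR2b-/- (written Fcgr2b-/- below), 8 of the 28 libraries of the series. The series also holds 4 kidney libraries from wild-type mice and 4 from Rhbdf2-/- mice, which were used as reference groups, and 12 libraries of macrophages sorted from kidneys of the same genotypes. All mice were C57BL/6 female littermates aged 7 to 9 months, with no agent given according to the labels, and the kidneys were perfused before RNA was taken. No promoter or Cre is named in the labels. Titles and genotype labels disagree for the double mutant, since its titles mention Rhbdf2 alone, and the genotype label was followed.

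Fcgr2b encodes the inhibitory receptor for IgG, which restrains B cells and myeloid cells that bind immune complexes, and its loss on this background is known to lead to lupus-like autoimmunity with immune complexes in the glomerulus. Rhbdf2 encodes iRhom2, an inactive relative of rhomboid proteases that carries the metalloprotease ADAM17 from the endoplasmic reticulum to the cell surface and sets its activity there. ADAM17 releases the extracellular parts of TNF, of both TNF receptors and of several ligands of the EGF receptor, including HB-EGF, so the pathway joins inflammatory signalling to growth factor signalling in epithelium.

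Each kidney library held 29015894 to 41617902 reads in the 12315 listed genes, and values are given as CPM, read counts scaled to a common library total, where 1 read was worth 0.0226 to 0.0353 CPM. Markers of proximal tubule, thick limb, collecting duct, podocytes and endothelium were present in every kidney library. Genotype cannot be told apart from sequencing lane, because each kidney genotype was run on a lane of its own. Mitochondrial transcripts took 5.87 to 14.5% of reads in Fcgr2b-/- and 9.19 to 14.3% in double-mutant kidney, against 10.4 to 11.8% in wild-type. Double-mutant library 4 stood apart from the other 3 double mutants. Its mean log2(CPM + 1) over 24 macrophage genes was 3.70 against 5.11 to 5.80, and over 9 MHC class II genes 4.64 against 6.27 to 8.36, and results that rest on it are given with and without it. Rhbdf2 was read at 25 to 37.1 CPM with Fcgr2b lost and 9.29 to 19.7 with both lost, and Fcgr2b at 23.4 to 34.2 and 20.7 to 41.5 CPM. Both genes therefore gave reads where the label says they were deleted. The labels do not say which exons were removed, so these values do not check the genotypes. In whole tissue, fewer cells of a type and less RNA per cell cannot be told apart.

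Differences below are log2 differences of group means of log2(CPM + 1) with their standard error (SE, n = 4 per group), double mutant minus Fcgr2b-/- unless another comparison is named. A gene is said to have risen or fallen when its limma Benjamini-Hochberg adjusted p over all 12315 genes was below 0.05. The labels tie no library to a mouse of its own, so a p-value reflects only how far these samples differ, which may be technical. By that rule 5578 genes differed between double-mutant and Fcgr2b-/- kidney, 45.3% of those tested, of which 2769 were higher (22.5%) and 2809 lower (22.8%). Over all 12315 genes, called or not, every double mutant lay above every Fcgr2b-/- library for 2004 (16.3%) and below for 2114 (17.2%). Set against wild-type, the double mutant differed in 898 genes (7.29%), 557 of them higher (4.52%) and 341 lower (2.77%), while Fcgr2b-/- kidney differed in 7422 genes (60.3%; 29.5% higher and 30.8% lower). The 3 comparisons share libraries, so their values are set side by side and not correlated. The count against wild-type depended on single libraries. It was 1706 without double-mutant library 4, between 185 and 417 without any other double mutant, and 121, 557, 381 and 155 without wild-type libraries 1 to 4. The double mutants lay wholly above wild-type for 812 genes (6.59%) and wholly below for 1394 (11.3%). Over all genes the median log2 difference was 0.00 against Fcgr2b-/- and -0.03 against wild-type.

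**Figure D1:**
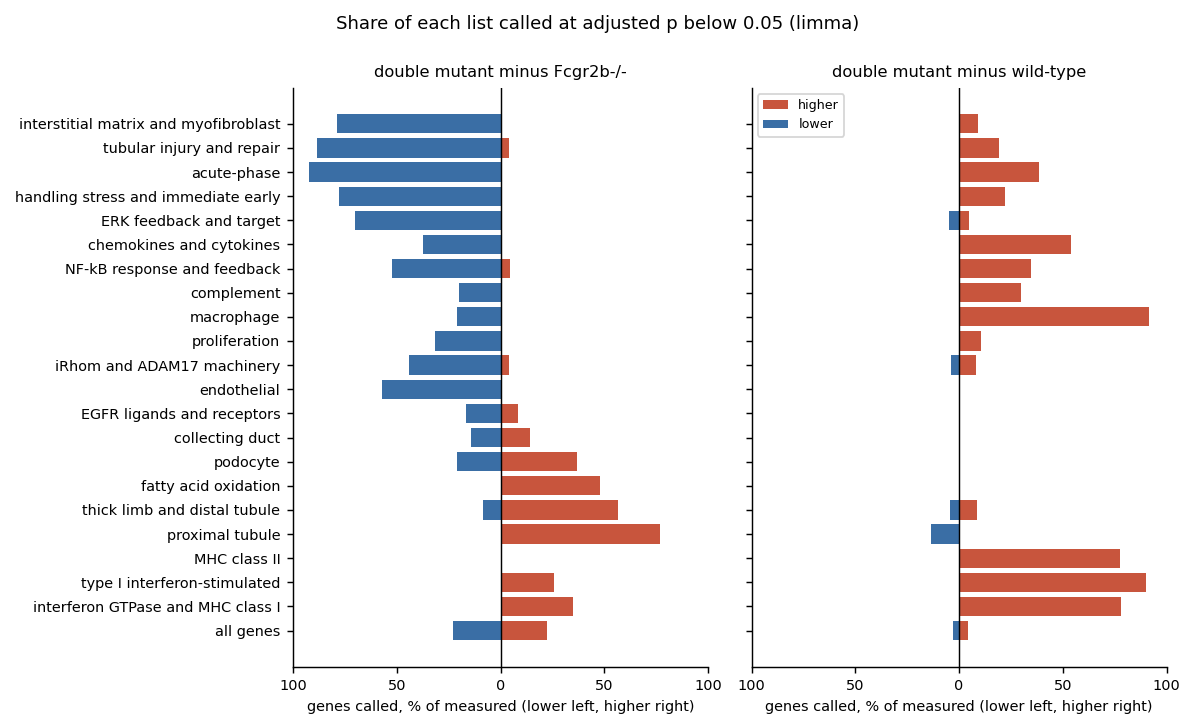
Share of the measured genes of each list called by limma in double-mutant kidney, with lower genes drawn to the left and higher genes to the right, against Fcgr2b-/- (left panel) and wild-type (right panel). Injury, acute-phase and matrix lists extend to the left against Fcgr2b-/-, with 23 of 26, 12 of 13 and 26 of 33 genes lower, whereas the macrophage list extends to the right against wild-type, with 22 of 24 genes higher.

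Genes of the injured tubule were mostly lower in the double mutant. Of 26 genes in the list of tubular injury and repair, 23 fell and 1 rose, with a median log2 difference of -1.94, and for 22 of the 26 every double mutant lay below every Fcgr2b-/- library. Lcn2, whose product NGAL binds bacterial siderophores and is secreted by damaged tubule, stood at 365, 248, 900 and 319 CPM in Fcgr2b-/- libraries 1 to 4 and at 57, 16.2, 14.2 and 5.51 CPM in double mutants. Every double mutant lay below every Fcgr2b-/- library, while wild-type kidney held 1.89 to 5.41 CPM. Havcr1, the phosphatidylserine receptor KIM-1 of damaged proximal tubule, stood at 304, 50.1, 187 and 104 CPM in Fcgr2b-/- and at 36.8, 8.28, 6.87 and 0.629 CPM in double mutants, so that library 4 alone reached the wild-type range of 0.264 to 2.14. Krt20, a keratin of injured tubule, fell by 3.25 ± 0.36 (adjusted p = 1e-05) from 9.36 to 34.3 CPM down to 0.0992 to 2.39. The keratin gene Krt8 fell by 1.41 ± 0.11 with tight groups, 134 to 186 CPM against 50.9 to 61.5. Sox9, a transcription factor of regenerating tubule, was at 6.64 to 15.1 CPM in Fcgr2b-/- and 0.841 to 1.57 in double mutants, inside or below the wild-type range of 1.21 to 1.95. Tnfrsf12a, the receptor of the cytokine TWEAK, fell by 2.53 ± 0.19 to 10.6 to 25.7 CPM. The gene that rose was Itgb6, an epithelial integrin subunit, at 0.93 ± 0.17, and Prom1 (-0.01) and Vcam1 (-0.98 ± 0.39, adjusted p = 0.053) did not pass the test.

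In double mutants 5 of these 26 injury genes were still above wild-type, with a median log2 difference of 0.18. In Fcgr2b-/- kidney 24 were, with a median of 2.15. Lcn2 was one of the 5, at 2.23 ± 0.62 over wild-type (adjusted p = 0.0442), while Havcr1 had a similar difference of 2.15 ± 0.71 that did not pass (adjusted p = 0.0815). With a single library left out, the number of injury genes above wild-type ranged from 1 (without wild-type library 1 or 4 or double-mutant library 2) to 8 (without double-mutant library 4). With a weight fitted for each library (array weights) it was 12, and 1 gene was below wild-type.

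**Figure D2:**
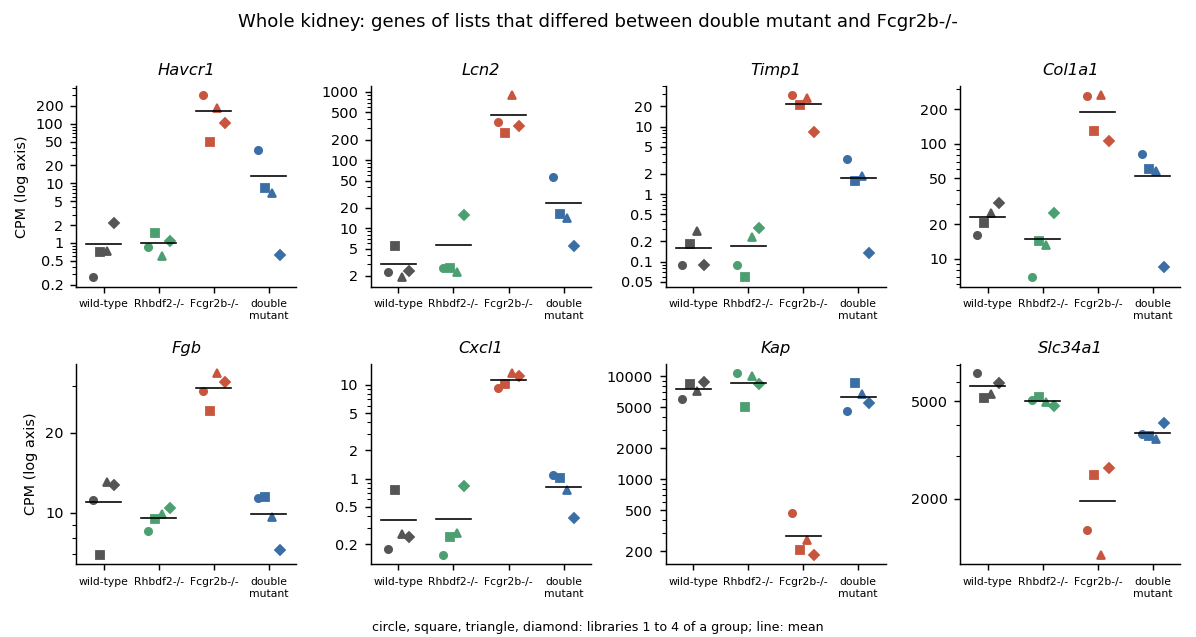
CPM on a log axis for 8 genes in the 16 kidney libraries, with 1 symbol per library number and a line at the group mean. Lcn2, Havcr1, Timp1, Col1a1, Fgb and Cxcl1 are lower and Kap and Slc34a1 higher in all 4 double mutants than in any Fcgr2b-/- library.

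Acute-phase genes, best known from liver, moved with the injury genes. Of 13 measured members 12 fell and 0 rose, with a median of -1.76, and 5 were above wild-type in double mutants, a count of 2 without wild-type library 1 or 4 or double-mutant library 2 or 3 and of 3 without double-mutant library 1. With array weights 10 were above wild-type. Serpina3n, a protease inhibitor, fell by 4.06 ± 0.44 from 61.8, 83.6, 110 and 29.9 CPM to 7.64, 2.53, 2.29 and 1.34. The 3 fibrinogen chains fell together. Fgg fell by 2.24 ± 0.17 (adjusted p = 6.65e-07), from 108 to 168 CPM down to 22 to 32.9, Fga by 1.98 ± 0.19 and Fgb by 1.49 ± 0.17. Fgb lay within the wild-type range of 6.9 to 13 CPM, at 7.21 to 11.4, while Fgg lay above all wild-type libraries, at 0.70 ± 0.17 over wild-type (adjusted p = 0.0277). Cp, which encodes the copper-carrying ferroxidase ceruloplasmin, fell by 1.34 ± 0.14 to 131 to 188 CPM and also remained above wild-type, whose libraries held 82.8 to 110. C3, the central complement protein, fell from 580 to 1042 CPM down to 246, 177, 339 and 27.9, the last in double-mutant library 4.

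Of 33 matrix and myofibroblast genes 26 fell and 0 rose, with a median of -1.59. Against wild-type 3 were higher in double mutants (median 0.52) and 30 in Fcgr2b-/- kidney (median 2.03). With a single library left out the 3 ranged from 0 (without wild-type library 1 or 4 or double-mutant library 2) to 11 (without double-mutant library 4). With array weights 20 of the 33 were above wild-type in double mutants. Timp1, an inhibitor of matrix metalloproteases, fell by 3.06 ± 0.37 from 8.21 to 29.4 CPM down to 0.135 to 3.27. Col1a1, the main chain of type I collagen, held 258, 129, 265 and 105 CPM against 81.7, 60.4, 57.5 and 8.48, and library 4 lay below all wild-type libraries (16 to 30.4). Acta2, the smooth-muscle actin of myofibroblasts and vessels, fell by 1.97 ± 0.21 to 42.2 to 111 CPM, around the wild-type range of 53.6 to 79.8. Elastin, Eln, fell by 1.80 ± 0.17 and the collagen gene Col12a1 by 1.77 ± 0.19.

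Among ligands and receptors of the EGF receptor family 3 of 12 genes were called, all of them ligands, where 45.3% of all genes were called. Hbegf, the ligand whose release depends on ADAM17, stood at 27.9, 37.7, 34.9 and 27 CPM in Fcgr2b-/- and at 15.3, 11.1, 8.71 and 12.6 CPM in double mutants, against 9.34 to 14.7 in wild-type. It fell by 1.36 ± 0.17 (adjusted p = 3.1e-05) and its difference from wild-type was 0.09 ± 0.17. The ErbB ligand Nrg1 fell by 0.94 ± 0.15, from 9.27 to 16.6 CPM down to 5.61 to 7.33. Egf, whose precursor is made in the distal nephron, moved the other way, from 294, 437, 157 and 380 CPM to 1173, 1606, 1460 and 1779, and remained below all wild-type libraries (1857 to 2147) without passing that test. The median of the 12 measured ligands, receptors and regulators was 0.11, with 1 higher and 2 lower. Egfr itself had a difference of -0.14 ± 0.11 (adjusted p = 0.304), with 60.5 to 70 CPM in Fcgr2b-/- and 50.4 to 70.4 in double mutants.

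Of 20 feedback regulators and targets of the ERK kinase cascade 14 fell and 0 rose (median -0.78), against 16 that were higher in Fcgr2b-/- than in wild-type kidney. Etv4, an ETS transcription factor, fell by 1.70 ± 0.18 from 5.82 to 9.11 CPM down to 1.16 to 1.64, within the wild-type range of 1.12 to 1.83. Myc fell by 1.76 ± 0.22 and Plaur, the urokinase receptor, by 1.72 ± 0.23. Spry4, a Sprouty protein that dampens signals from growth factor receptors, stood at 12.3, 14.1, 11.2 and 11.2 CPM against 7.51, 6.75, 6.62 and 5.72, which lay below every wild-type library (8.02 to 9.7). It was the ERK gene called lower than wild-type in the double mutant, by 0.37 ± 0.10 (adjusted p = 0.0407). That call was lost without any single wild-type library and by limma-voom. It was also lost without double-mutant library 2, 3 or 4 or Rhbdf2-/- library 3 or 4. Dusp6, the phosphatase that acts on ERK, had groups that did not overlap but did not pass (-0.44 ± 0.22, adjusted p = 0.116). Genes that rise when tissue is handled moved alongside. Of 18 such immediate early and stress genes 14 fell and 0 rose (median -1.28), among them Fos by 1.55 ± 0.33, Egr1 by 1.86 ± 0.34 and Klf4 by 1.78 ± 0.19. The part of tissue handling in the ERK result was not tested. Btg2, an antiproliferative early gene, was at 65.4 to 80.6 CPM in Fcgr2b-/-, 35.5 to 43.7 in double mutants and 25.4 to 30.3 in wild-type, 3 groups with no overlap.

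Of 25 genes of the iRhom and ADAM17 machinery and of shed substrates 11 fell and 1 rose (median -0.47), where 22.8% and 22.5% of all genes did. The genes that fell include Rhbdf2 itself, deleted by design, and Timp1, Icam1 and Sdc1, which other lists count as well. Rhbdf2 reads fell by 1.04 ± 0.17, and those of its paralogue Rhbdf1 by 0.75 ± 0.10, from 59.7 to 67.2 CPM down to 31.3 to 43.6. Adam17 had a difference of -0.09 ± 0.10 (adjusted p = 0.501), at 54.6 to 78.2 CPM against 53.3 to 68.1. Timp3, the tissue inhibitor that blocks ADAM17, rose by 0.74 ± 0.16 from 31.7 to 57.2 CPM up to 60.6 to 88.5 and remained below the wild-type range of 114 to 143 (-0.73 ± 0.16, adjusted p = 0.018). Sdc1, a heparan sulfate proteoglycan that is shed from epithelium and also marks plasma cells, fell by 1.84 ± 0.20.

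Some inflammatory mediators fell and others did not. Of 24 measured chemokines and cytokines 9 fell and 0 rose (median -0.62), where 22.8% of all genes fell. With only the 2 groups compared 5 fell, beside 1844 of all 12315 genes. In the double mutant 13 were above wild-type (median 1.12), as were 4.52% of all genes. The 13 became 1 without wild-type library 1 or 4 or double-mutant library 2 or 3, 2 to 4 without wild-type library 2 or 3 or double-mutant library 1, 18 without double-mutant library 4, and 2 by limma-voom. With array weights they became 20. Cxcl1, which attracts neutrophils, stood at 9.27, 10.3, 13.4 and 12.3 CPM in Fcgr2b-/- and at 1.1, 1.02, 0.749 and 0.382 CPM in double mutants. It fell by 2.77 ± 0.20 (adjusted p = 4.33e-07), into or just above the wild-type range of 0.176 to 0.758. The IL-6 family cytokine Lif fell by 2.36 ± 0.36 and Tgfb2 by 0.76 ± 0.14. Tnf, a main substrate of ADAM17, stood at 3.61, 1.16, 4.51 and 3.93 CPM in Fcgr2b-/- and at 3.05, 4.16, 3.16 and 0.347 in double mutants. The groups overlapped (-0.30 ± 0.36, adjusted p = 0.513), and without double-mutant library 4 the sign turned (0.13). Library 4 was also the double mutant within the wild-type range of Tnf, 0.239 to 0.382, and the double mutants as a group were above wild-type by 1.31 ± 0.36 (adjusted p = 0.0406). The chemokine genes with the highest differences, named after their values were seen, were the ligands of the receptor CXCR3, Cxcl9 (1.90 ± 0.88, adjusted p = 0.0929) and Cxcl10 (0.96 ± 0.42, adjusted p = 0.0757), and Ccl5 (1.08 ± 0.74), which did not pass. Without Fcgr2b-/- library 4 the number of mediators that fell was 14, and without double-mutant library 4 it was 8, with 3 that rose.

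Response and feedback genes of NF-kB, the transcription factor downstream of TNF, numbered 12 lower and 1 higher of 23 (median -0.61). Of all genes 22.8% fell and 22.5% rose. Nfkbia, which encodes the inhibitor that TNF induces, was at 68.1, 71.5, 65.8 and 75.8 CPM in Fcgr2b-/-, at 44.4, 49.4, 47.5 and 40.7 in double mutants and at 24.2 to 37.1 in wild-type. The double mutants lay between the other groups with no overlap on either side (-0.62 ± 0.12 and 0.71 ± 0.12, adjusted p = 0.000784 and 0.01). Nfkbiz behaved alike, at -1.31 ± 0.23 and 0.91 ± 0.23. Rela, a subunit of NF-kB, fell by 0.77 ± 0.11 from 73.5 to 92.9 CPM down to 37.3 to 57.4, around the wild-type range of 43.7 to 47.3. Icam1, an adhesion molecule for leukocytes, fell by 0.87 ± 0.28, a call lost without Fcgr2b-/- library 3 (-0.77). Tnfaip8 was the gene that rose, by 0.71 ± 0.15. In all 8 of the 23 genes were above wild-type. This was 2 without wild-type library 1 or 4, 3 without double-mutant library 2 or 3, 5 without wild-type library 2 or double-mutant library 1, and 18 without double-mutant library 4. With array weights 20 were above wild-type and 1 below.

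Genes of the healthy tubule rose. The proximal tubule list had 23 of 30 genes higher and 0 lower (median 0.87), while 4 were below wild-type in the double mutant (median -0.44) and 28 in Fcgr2b-/- kidney (median -1.29). With a single library left out the 4 ranged from 0 (without wild-type library 1 or 4 or double-mutant library 3) to 7 (without Fcgr2b-/- library 2, 3 or 4 or double-mutant library 4). With array weights 20 of the 30 were below wild-type in the double mutant. Kap, an androgen-regulated transcript of proximal tubule, stood at 473, 204, 258 and 183 CPM in Fcgr2b-/- and at 4583, 8581, 6728 and 5522 CPM in double mutants, against 6068 to 8695 in wild-type. Its rise of 4.57 ± 0.30 was the largest among the genes that met the rule for naming. Dnase1, a secreted nuclease, rose by 4.10 ± 0.43 from 15.9, 91.8, 13.8 and 26.2 CPM to 432, 467, 387 and 703. Ccdc170, a coiled-coil gene, rose by 4.05 ± 0.15 (adjusted p = 7.06e-10) from 1.08, 0.565, 0.168 and 0.266 CPM to 24.2, 22.1, 22.8 and 25.4. The organic anion transporter genes Slc22a7 and Slc22a19 rose by 3.77 ± 0.32 and 3.81 ± 0.29, and Akr1c14 and Akr1c18, which encode aldo-keto reductases of steroids, by 3.54 ± 0.29 and 2.96 ± 0.50. Aadat, an aminotransferase of lysine and kynurenine metabolism, rose by 3.37 ± 0.38, C8a, a component of the terminal complement complex, by 3.43 ± 0.26 and Cyp2d12, a cytochrome P450, by 4.22 ± 0.36.

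Among transport and uptake genes of the proximal tubule, Slc34a1, the sodium-phosphate cotransporter, was at 1498, 2504, 1176 and 2674 CPM in Fcgr2b-/- and at 3656, 3591, 3505 and 4051 in double mutants. It rose by 0.99 ± 0.21 and still lay below all wild-type libraries (5156 to 6508), a difference of -0.63 ± 0.21 that did not pass (adjusted p = 0.0848). Lrp2, the endocytic receptor megalin, rose from 425 to 1030 CPM up to 1595 to 2562 (adjusted p = 0.000185), overlapping wild-type (2330 to 3306). Its partner Cubn, cubilin, rose by 1.38 ± 0.17 from 62.8 to 112 CPM up to 152 to 248 and remained lower than wild-type, 305 to 457 (-0.85 ± 0.17, adjusted p = 0.0159). Gatm, an enzyme of creatine synthesis, rose by 1.82 ± 0.22. Pck1, the gluconeogenic enzyme PEPCK, had overlapping groups, 402 to 1056 against 957 to 1355 CPM (0.80 ± 0.33, adjusted p = 0.0623), and was lower than wild-type (-1.16 ± 0.33, adjusted p = 0.0474).

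Of 23 genes of distal segments 13 rose and 2 fell (median 0.54). Pvalb, a calcium-binding protein found in the first stretch of the distal convoluted tubule, was at 0.102, 0.396, 0.0285 and 0.0285 CPM in Fcgr2b-/-, at or under 3 reads in most, and at 1.7, 8.51, 14.4 and 22.3 in double mutants. Each double mutant lay above each Fcgr2b-/- library and below the wild-type range of 31.9 to 40.4, and it was the largest fall from wild-type among genes that met the rule (-1.93 ± 0.44, adjusted p = 0.0212). Slc12a3, the thiazide-sensitive cotransporter of the same segment, was at 257 to 336 CPM against 337, 763, 735 and 801, with double-mutant library 1 next to the Fcgr2b-/- libraries. In the thick ascending limb Slc12a1, the furosemide-sensitive cotransporter, rose by 0.82 ± 0.13 from 1203 to 1272 CPM up to 1861 to 2700 and exceeded all wild-type libraries (1411 to 1828) without passing that test (0.44 ± 0.13, adjusted p = 0.053). Kcnj1, the potassium channel ROMK, rose by 0.83 ± 0.12, while Umod, the urinary protein uromodulin, did not pass (0.26 ± 0.16), at 3835 to 6060 against 4801 to 6239 CPM. The genes that fell were the calcium channel gene Trpv5 and Cldn16, a tight junction protein for magnesium. Neither was called without Fcgr2b-/- library 3.

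Of 25 fatty acid oxidation genes 12 rose and 0 fell (median 0.45), and 0 differed from wild-type, where Fcgr2b-/- kidney had 15 lower. With array weights 6 were below wild-type in the double mutant. Acadm, the medium-chain acyl-CoA dehydrogenase, rose by 1.68 ± 0.21 from 276 to 542 CPM up to 1104 to 1285. Ppargc1a, a coactivator of mitochondrial genes, rose by 0.70 ± 0.13, while Ppara and Cpt1a, a fatty acid receptor and the carnitine transferase of the outer membrane, did not pass (0.51 ± 0.28 and -0.09 ± 0.13). The 13 transcripts of the mitochondrial genome had 0 calls and a median of 0.41. Their level varied within both groups, with mt-Co1 at 17645, 24972, 15045 and 41276 CPM in Fcgr2b-/- and at 28526, 27345, 29738 and 47282 in double mutants. Without Fcgr2b-/- library 4, the highest of its group, 9 of the 13 rose.

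Of 21 collecting duct genes 3 rose and 3 fell (median -0.13), where 22.5% and 22.8% of all genes did. The water channel genes Aqp4 (1.73 ± 0.32) and Aqp6 (-0.43 ± 0.14) went in opposite directions and Aqp2, the vasopressin-regulated channel, did not pass (-0.27 ± 0.35). Of 19 podocyte genes 7 rose and 4 fell (median 0.35), where 22.5% and 22.8% of all genes did. The 7 became 4 when Fcgr2b-/- library 3 or double-mutant library 1 or 2 was left out. Every double mutant lay above every Fcgr2b-/- library for 3 of the 19 and below for 2, against 16.3% and 17.2% of all genes. The collagen IV genes of the glomerular basement membrane Col4a3 and Col4a4 rose by 0.90 ± 0.21 and 0.54 ± 0.09, and the laminin gene Lamb2 fell by 0.79 ± 0.10. Nphs1, the slit diaphragm protein nephrin, was at 44.5, 37.5, 17.1 and 11.7 CPM in Fcgr2b-/- and 54.9, 46.5, 38.8 and 40.3 in double mutants. The spread lay in Fcgr2b-/- libraries 3 and 4, and the call (0.86 ± 0.30, adjusted p = 0.0278) was lost without either of them (0.70 and 0.53) and without double-mutant library 1 or 2 (0.76 and 0.84). Of 21 endothelial genes 12 fell and 0 rose (median -0.37). Selp, the adhesion molecule P-selectin of activated endothelium, fell by 1.15 ± 0.19 from 3.12 to 4.44 CPM down to 0.453 to 1.63. Pecam1 and Cdh5, general endothelial junction genes, fell by 0.39 ± 0.10 and 0.53 ± 0.09, and both were back in or near the wild-type ranges. The capillary genes Kdr and Ehd3 did not pass (0.17 and 0.08).

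**Figure D3:**
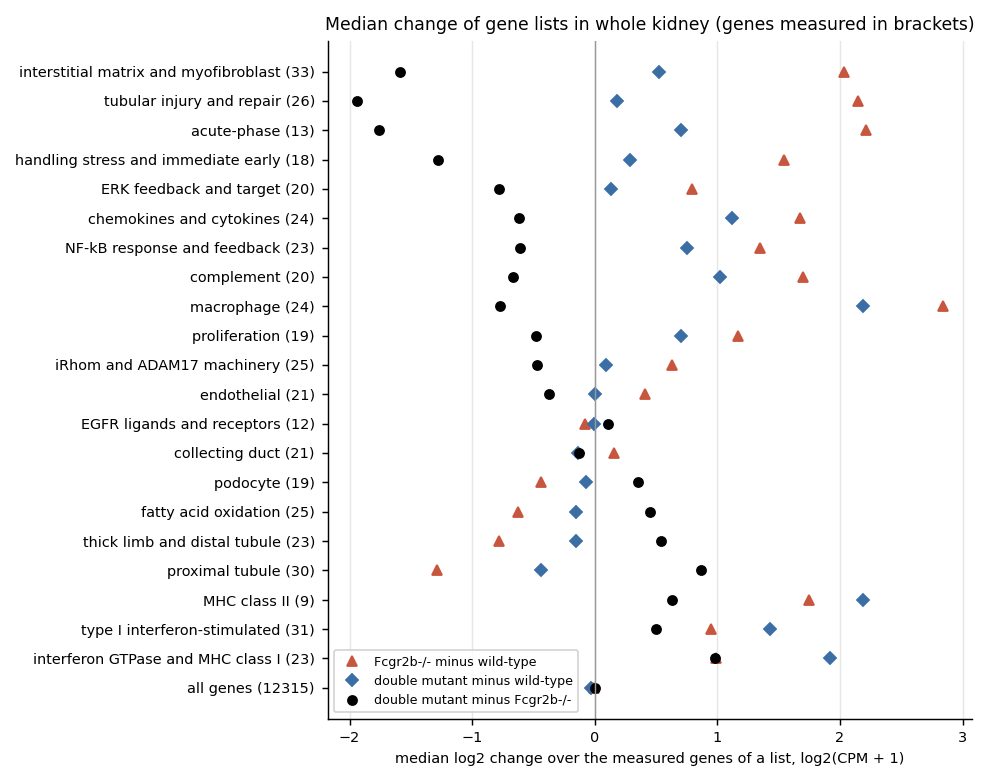
Median log2 change of each gene list in 3 kidney comparisons (triangles, Fcgr2b-/- minus wild-type; diamonds, double mutant minus wild-type; circles, double mutant minus Fcgr2b-/-), with the number of genes measured in brackets. For tubular injury the diamond is near 0 at 0.18 and the triangle at 2.15, while for macrophage genes they lie at 2.19 and 2.84 and for type I interferon genes at 1.43 and 0.95.

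Macrophage genes were above wild-type in both mutants. Of 24 genes 5 fell and 0 rose against Fcgr2b-/- (median -0.77), a share near the 22.8% of all genes that fell. In double mutants 22 were above wild-type (median 2.19), as were 4.52% of all genes, beside 24 in Fcgr2b-/- kidney (median 2.84). The 22 became 12 by limma-voom and ranged from 10 to 24 with a single library left out. The summed level of the list was 1537 to 3993 CPM in Fcgr2b-/-, 567 to 2719 in double mutants and 311 to 384 in wild-type. C1qa, a complement subunit made by tissue macrophages, stood at 283, 119, 272 and 125 CPM in Fcgr2b-/- and at 96.7, 168, 197 and 41.6 in double mutants, against 21 to 24.9 in wild-type. The groups overlapped (-0.77 ± 0.41, adjusted p = 0.142). Lyz2, the lysozyme of myeloid cells, was at 1102, 340, 995 and 598 against 340, 412, 644 and 79.3 CPM and did not pass (-1.24 ± 0.54, adjusted p = 0.0743). It passed without Fcgr2b-/- library 2 (-1.57) or double-mutant library 3 (-1.62). Csf1r, the receptor for the growth factor M-CSF, showed the smallest span, 103 to 224 against 99.7 to 161 CPM (-0.19 ± 0.21).

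The macrophage genes that fell included 2 of lipid-handling, lysosome-rich cells. Trem2, a lipid receptor, was at 25.3, 14.3, 35.6 and 24.6 CPM in Fcgr2b-/- and at 5.31, 5.08, 5 and 0.771 in double mutants, with no overlap (-2.46 ± 0.36, adjusted p = 0.000108). Gpnmb, a lysosomal glycoprotein, was at 36.6, 11.4, 66.4 and 28.8 against 5.53, 3.46, 11 and 0.913 CPM (-2.61 ± 0.49). Itgam, the integrin CD11b, fell by 1.33 ± 0.42, a call lost without double-mutant library 4 (-0.92), Fcgr2b-/- library 1 (-1.10) or Fcgr2b-/- library 3 (-1.19). The other 2 were Cd68 and Fcgr3, a lysosomal marker and an activating IgG receptor. Fcrls, a scavenger receptor-like gene outside the list, fell by 3.16 ± 0.49 from 8.99 to 71.9 CPM down to 0.999 to 4.12. The number of macrophage genes that fell was 2 without Fcgr2b-/- library 1 or 3 or double-mutant library 4, 3 without double-mutant library 1, 8 without double-mutant library 2 and 9 without Fcgr2b-/- library 2.

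**Figure D4:**
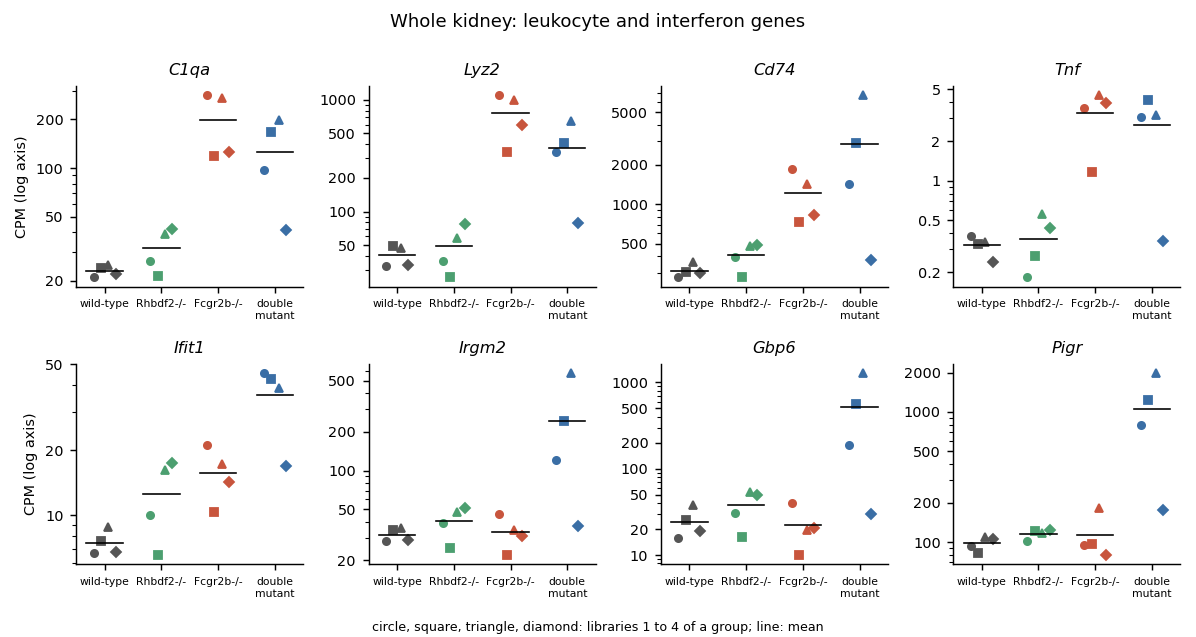
CPM on a log axis for 8 leukocyte and interferon genes in the 16 kidney libraries, with 1 symbol per library number and a line at the group mean. Double-mutant library 4 (diamond) is the lowest of its group in every panel, and libraries 1 to 3 of the double mutant exceed all Fcgr2b-/- libraries for Ifit1, Irgm2, Gbp6 and Pigr.

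Of 20 complement genes 4 fell (median -0.67), a share near the 22.8% of all genes that fell, and 6 were above wild-type. Clu, a chaperone of injured epithelium, fell by 2.11 ± 0.21 from 1030 to 2528 CPM down to 343 to 420, the C5a receptor gene C5ar1 by 1.47 ± 0.27 and Cfi, a protease that inactivates C3b and C4b, by 1.21 ± 0.22. C4b was at 57.5, 36.4, 34 and 51 against 34.4, 40.7, 76.2 and 13.3 CPM and did not pass (-0.32 ± 0.41, and 0.12 without double-mutant library 4). Without Fcgr2b-/- library 4, 7 complement genes fell. Proliferation genes fell in 6 of 19 cases (median -0.48), where 22.8% of all genes fell. That count ranged from 3 to 11 with a single library left out, the latter without Fcgr2b-/- library 2. Cdk1, the mitotic kinase, fell by 1.04 ± 0.28, while Mki67 and Top2a, markers of cycling cells, did not pass (-0.58 ± 0.43 and -0.41 ± 0.43). Library 4, at 4.41 and 2.64 CPM, lay within the wild-type range of each, and the other 3 double mutants lay above it.

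Counts for MHC class II and for T and NK cell genes depended on double-mutant library 4. The 9 MHC class II genes had 0 calls against Fcgr2b-/- (median 0.63) and 7 above wild-type (median 2.19). H2-Ab1, a class II beta chain, was at 629, 277, 522 and 335 CPM in Fcgr2b-/- and at 513, 1011, 2295 and 147 in double mutants, so the double mutants held both the highest and the lowest value (0.63 ± 0.58). Without library 4 it rose by 1.34 and all 9 genes were higher. Cd74, the invariant chain, had a difference of 0.68 ± 0.61, and 1.44 without that library. T and NK cell genes had 0 calls among 10 measured (median 0.69), and 8 rose without library 4. Cd8a, the co-receptor of cytotoxic T cells, was at 2.35 to 4.67 against 3.93, 7.54, 19.4 and 2.15 CPM. Of 4 dendritic cell genes 1 rose, a share near the 22.5% of all genes. It was Clec9a, a receptor of cross-presenting cells, which rose by 1.29 ± 0.36, from 1.44 to 4.15 CPM up to 3.81 to 20.1. In the B and plasma cell list 1 of 15 genes rose and 2 fell (median -1.07), where 22.5% and 22.8% of all genes did. Cd79a, of the B cell receptor complex, did not pass, with 0.708 to 11.3 against 0.523 to 1.25 CPM. The 2 that fell, Sdc1 and Xbp1, are also expressed by epithelium. Without Fcgr2b-/- library 4, 7 of the 15 fell, and without double-mutant library 4 the count was again 2. The one that rose was Pigr, the epithelial receptor that carries IgA and IgM into urine and mucus, at 95.9, 96.2, 182 and 79.3 CPM in Fcgr2b-/- and 787, 1246, 1992 and 177 in double mutants (2.83 ± 0.51, adjusted p = 0.000505). Of 2 neutrophil genes measured 0 were called.

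**Figure D5:**
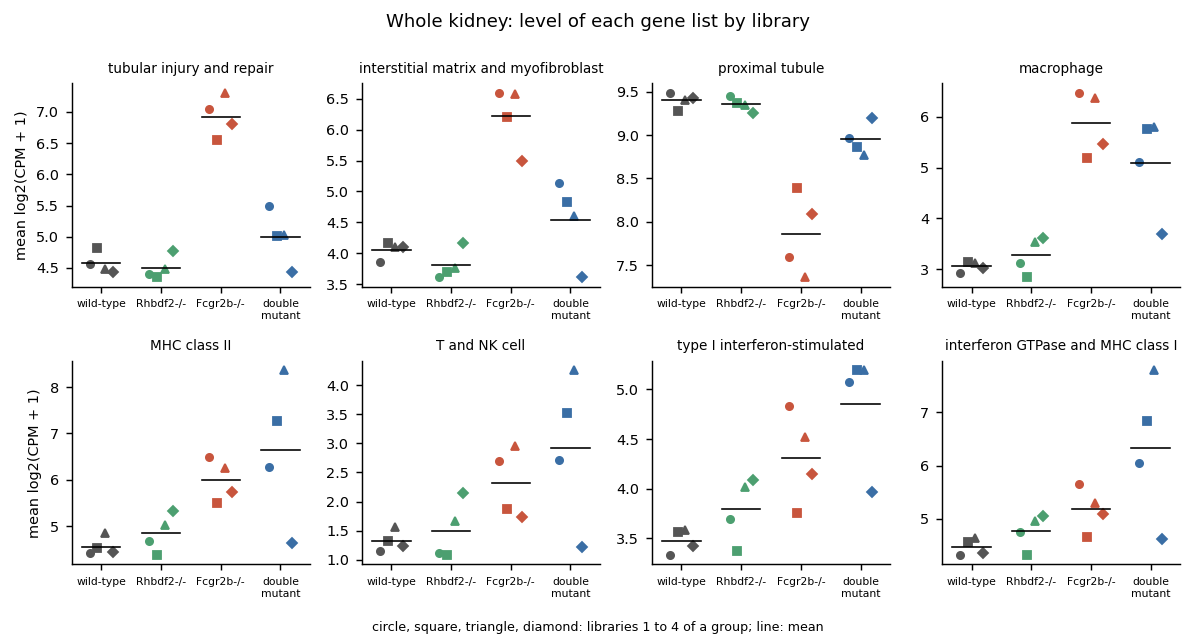
Mean log2(CPM + 1) of 8 gene lists in each of the 16 kidney libraries, with 1 symbol per library number and a line at the group mean. Double-mutant library 4 (diamond) has 4.64 for MHC class II and 3.97 for type I interferon-stimulated genes, the lowest of its group.

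Interferon-stimulated genes were above wild-type in the double mutant, and some were also above Fcgr2b-/- kidney. Of 31 genes of the type I list 8 rose and 0 fell (median 0.50), a share near the 22.5% of all genes that rose, and 28 were above wild-type (median 1.43), beside 23 in Fcgr2b-/- kidney (median 0.95). Every double mutant lay above every Fcgr2b-/- library for 1 of the 31, against 16.3% of all genes. Promoter windows of 3 interferon genes and of Cxcl1 are shown because each holds the motif looked for in it. They were picked after the search from 12 promoters examined, of which 6 held their motif in the window and 6 did not. They are the 150 bases before the start site, from RefSeq on GRCm38.p6, read 5′ to 3′ on the strand of the gene. Capitals in the first 3 mark the core of the interferon-stimulated response element, a GAAA repeat with any pair of bases between its copies, on either strand, and in Cxcl1 an NF-kB site, GGGA and TTTCC with any base between. The windows lie at chr19:34640739-34640888 (plus strand, Ifit1), chr4:156200819-156200968 (minus strand, Isg15), chr11:58214827-58214976 (plus strand, Irgm2) and chr5:90891095-90891244 (plus strand, Cxcl1).
Ifit1: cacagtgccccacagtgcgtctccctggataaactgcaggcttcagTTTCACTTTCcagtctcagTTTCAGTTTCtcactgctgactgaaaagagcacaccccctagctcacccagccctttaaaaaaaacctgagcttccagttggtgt
Isg15: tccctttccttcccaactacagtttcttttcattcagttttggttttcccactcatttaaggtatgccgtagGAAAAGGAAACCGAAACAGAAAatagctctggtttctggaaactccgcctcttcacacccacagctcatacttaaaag
Irgm2: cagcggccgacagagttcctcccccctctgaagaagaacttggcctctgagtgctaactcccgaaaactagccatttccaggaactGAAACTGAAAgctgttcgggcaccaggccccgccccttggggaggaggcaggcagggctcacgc
Cxcl1: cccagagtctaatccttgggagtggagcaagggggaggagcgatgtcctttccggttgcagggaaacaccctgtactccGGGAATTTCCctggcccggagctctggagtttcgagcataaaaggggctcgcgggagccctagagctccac

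The response element core was found in 12 of 22 type I interferon genes that have a promoter in the reference table (54.5%) and in 9 of 18 genes of the interferon GTPase and MHC class I list (50%). Over all 9288 listed genes with such a promoter it was found in 344 (3.7%), counted in windows of 300 bases on both strands. The 3 cores of Isg15 overlap one another, and Ifit1 holds 2 that are separate. The NF-kB letters of Cxcl1 were found in 50 of the 9288 (0.538%). In all 15 motifs were searched, and they were chosen and compared over the gene lists with no test. Cmpk2, whose values follow, held none of the 15 in its 300 bases, and neither did Lcn2, Fgg or Timp1. Serpina3n held no STAT site (TTCNNNGAA), and Fgb held one outside the 150 bases. The STAT site was found in 4 of 11 acute-phase genes against 8.42% of all, and AP-1 letters (TGANTCA) in 5 of 19 injury genes against 6.31%. Shares in other lists varied widely. AP-1 letters were in 6 of 20 chemokine and 6 of 22 type I interferon genes, and in 1 of 27 proximal tubule genes. The STAT site was in 5 of 15 NF-kB genes and 1 of 20 chemokine genes. A match describes these letters and is not a site, and the lack of one says only that they are not in the window.

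Ifit1, an antiviral protein that binds foreign RNA, stood at 21.1, 10.3, 17.2 and 14.3 CPM in Fcgr2b-/- and at 45.6, 42.9, 38.7 and 16.9 in double mutants, against 6.66 to 8.78 in wild-type. It rose by 1.10 ± 0.32 (adjusted p = 0.0113), with library 4 inside the Fcgr2b-/- range. Cmpk2, a mitochondrial nucleotide kinase, was at 22.6, 13.3, 17.8 and 18.5 against 44.7, 42.3, 44.6 and 23.8 CPM, groups that did not overlap (1.04 ± 0.17). In wild-type it was at 26 to 29.3 CPM, so Fcgr2b-/- kidney lay below wild-type and 3 double mutants above. Its neighbour in function Rsad2, the antiviral enzyme viperin, rose by 0.83 ± 0.17, and Ifi44 by 1.22 ± 0.26. Isg15, a ubiquitin-like modifier, did not pass with all libraries (0.64 ± 0.38, adjusted p = 0.185) and rose by 1.07 without double-mutant library 4. Without that library 21 of the 31 genes rose, and without any other double mutant, or without Fcgr2b-/- library 2 or 4, 5 did.

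Genes of the interferon GTPase and MHC class I list, which respond strongly to interferon gamma, included 8 of 23 that rose and 0 that fell (median 0.98), where 22.5% of all genes rose. Every double mutant lay above every Fcgr2b-/- library for 0 of the 23, against 16.3% of all genes. Against wild-type 18 were higher (median 1.92). That last count was 0 without wild-type library 1 or 4 or double-mutant library 2, and 7 and 8 without wild-type library 2 and 3. It was 9 and 4 without double-mutant library 1 and 3, 3 with only the groups compared and 9 by limma-voom. Gbp6, a guanylate-binding protein, was at 39.8, 9.95, 19.4 and 20.7 CPM in Fcgr2b-/- and at 191, 557, 1288 and 30.3 in double mutants (3.60 ± 0.83, adjusted p = 0.00276). Irgm2, an immunity-related GTPase, was at 46, 21.9, 34.3 and 30.7 against 121, 245, 576 and 37.2 CPM (2.28 ± 0.56). In both the double mutants spread widely, with library 3 highest and library 4 within the Fcgr2b-/- range. Iigp1, another immunity-related GTPase, rose by 2.69 ± 0.83 and was the largest rise over wild-type among the genes that met the rule (3.67 ± 0.83, adjusted p = 0.0206). Gbp2 and Psmb9, a subunit of the immunoproteasome, did not pass (1.67 ± 0.70 and 1.38 ± 0.57, adjusted p = 0.0643 and 0.0614). Without library 4 they rose by 2.52 and 2.09, and 21 of the 23 genes were higher. The summed level of the list reached 13412 CPM in the double mutants, with a minimum of 1293, against 1562 to 3116 in Fcgr2b-/- and 982 to 1172 in wild-type. T and NK cell genes summed to 14.4 to 190 CPM in double mutants and 27.3 to 81.3 in Fcgr2b-/-, and the part of cell numbers in the interferon result was not tested.

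Among the genes with the largest rises over wild-type in the double mutant, Ms4a6d, a membrane protein of macrophages, stood 2.61 ± 0.37 above wild-type, at 14.2, 19.4, 14.4 and 3.64 CPM against 0.661 to 1.52. Ctss, the lysosomal protease cathepsin S, was 2.56 ± 0.43 above, Clec12a, an inhibitory myeloid lectin, 2.60 ± 0.47 and Serpina3g, a protease inhibitor of activated leukocytes, 2.79 ± 0.60. Against Fcgr2b-/- kidney none of these 4 passed, at -0.85, -0.61, 0.03 and -0.29. Among the largest falls from wild-type, Slc16a14, of the monocarboxylate transporter family, was at 13.4 to 25.5 CPM against 48.6 to 76.1 in wild-type (-1.71 ± 0.34). F5, coagulation factor V, was at 11.9, 15, 7.54 and 13.4 CPM, between 3.37 to 4.88 in Fcgr2b-/- and 25 to 32.5 in wild-type, and Rhbdf2-/- kidney held 15.6 to 19.2. Xylt1, a xylosyltransferase of proteoglycan synthesis, Cpne4, a calcium-dependent phospholipid-binding protein, and the carboxylesterase gene Ces2b were lower as well, at -0.87, -0.87 and -1.40. Among type I interferon, MHC class II and macrophage genes the number above wild-type was 12, 0 and 10 without wild-type library 1 and 29, 8 and 24 without double-mutant library 4. Without wild-type library 4 it was 14, 0 and 14, and by limma-voom 21, 5 and 12. Without double-mutant library 1, 2 and 3 in turn it was 20, 13 and 15 for type I interferon genes, 5, 0 and 1 for MHC class II genes and 17, 13 and 14 for macrophage genes.

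The interaction is the difference of double-mutant from Fcgr2b-/- kidney, less the difference of Rhbdf2-/- from wild-type kidney. Each genotype had a lane of its own, so the interaction cannot be told apart from lane. It was called for 3418 genes (27.8%), 1708 higher and 1710 lower (13.9% each). In the tubular injury list 20 of 26 genes had a lower interaction and 1 a higher, and in the acute-phase list 9 of 13 were lower. The median interaction of these lists was -1.64 and -1.79, beside -1.94 and -1.76 for double mutant minus Fcgr2b-/- alone. The matrix list had 17 of 33 lower, the ERK list 13 of 20 and the immediate early list 13 of 18. In the proximal tubule list 15 of 30 were higher. Lcn2 had an interaction of -4.95, Cxcl1 of -2.78 and Kap of 4.44. Of 31 type I interferon genes 3 had a higher interaction, Cmpk2 (0.97), Rsad2 (0.76) and Ifi44 (1.14), and in the interferon GTPase list none of 23 did, nor did any of 9 MHC class II genes. Pigr had one of 2.57.

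The same contrast was available in sorted macrophages, 3 libraries per genotype, normalized apart from the kidney libraries. There 3113 of 10523 genes differed (29.6%; 15.8% higher and 13.8% lower). Type I interferon genes rose in 29 of 31 cases (median 1.17), interferon GTPase and MHC class I genes in 14 of 23 (median 1.11) and MHC class II genes in 8 of 9 (median 1.40). Ifit1 rose by 1.74 (adjusted p = 0.00306), H2-Ab1 by 2.05 (adjusted p = 0.0034) and Gbp3, a guanylate-binding protein, by 1.58 (adjusted p = 0.00939). Trem2 and Gpnmb fell there too, by 2.42 and 3.34, as did 17 of 19 proliferation genes (median -1.60). Rela rose by 0.46 in the sorted cells, whereas it fell in whole kidney, and of 23 NF-kB genes 7 rose and 2 fell. Neither the difference between the tissues nor the part of other cells in the sorted libraries was tested.

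Markers of tissue next to the kidney also differed between libraries. Of 10 measured fat, adrenal and urothelium genes 4 fell and 0 rose (median -0.78). The 4 became 2 without Fcgr2b-/- library 1 or double-mutant library 2, 3 or 4, and 6 without double-mutant library 1. Their summed level was 93.4 to 190 CPM in Fcgr2b-/-, 67.3 to 186 in double mutants and 91.9 to 116 in wild-type. Their mean log2(CPM + 1) was 3.36, 2.68, 2.52 and 3.39 in Fcgr2b-/- and 3.38, 1.72, 1.62 and 1.93 in double mutants. In wild-type it was 2.66 to 2.86 and in Rhbdf2-/- kidney 1.93 to 2.72. Against wild-type the median difference was -0.01 in Fcgr2b-/- kidney, with 2 genes higher, and -0.85 in double mutants, with 0 called. Krt5, a basal keratin of urothelium, was at 13.5, 8.98, 12.7 and 26.1 CPM against 8.02, 1.97, 1.1 and 2.15, and Upk1b, a uroplakin, at 4.6 to 8.01 against 7.3, 1.7, 2.07 and 2.19. Double-mutant library 1 resembled the Fcgr2b-/- libraries in both. Krt19, an epithelial keratin that fell by 3.00 ± 0.42 and belongs to the injury list, was also highest in library 1 of the double mutants, at 12, 4.11, 3.36 and 3.95 CPM. Adipoq, of fat cells, was at 9.64, 0.904, 0.0749 and 14 CPM in Fcgr2b-/- and at 14.5, 0.0962, 0.0783 and 0.0992 in double mutants, and Plin4, a coat protein of lipid droplets, fell by 1.45 ± 0.34. The part of attached tissue in the results above was not tested. Cyp2j13, a cytochrome P450 outside these lists, fell by 2.92 ± 0.26.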

How the data were processed

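RNA-seq libraries of whole kidney (16) and sorted macrophages (12) were used. The authors deposited 1 table per tissue with log2 CPM per library, per the file headers, beside fold and p-value or false discovery rate columns of their own comparisons, which served only as an alternative. The submitters' processing notes name mm10 and GRCm38. For aligner, counter, annotation and strand: not given in the sources used here. The deposited values were turned back into CPM and tested as log2(CPM + 1) with limma 3.58.1 (R 4.3.3, trend), all 4 genotypes in one fit, and Benjamini-Hochberg adjustment over the 12315 kidney genes or 10523 macrophage genes. The design had assumed counts, and the unit found required this test. No filter was added to the genes listed. The script was tested on simulated data. A floor of 3 reads was 0.0677 to 0.106 CPM in kidney, for counting error only. Genes named are the largest rises and falls, set genes of each list and the smallest p of each list. Others, such as Itgb6, Vcam1, Prom1, Tnfaip8, Trpv5, Cldn16, Cxcl9 and Ccl5, were picked after their values were seen. Members, lists and motifs were chosen with earlier results of these data known. The motif set and the promoters printed were narrowed after shares had been seen, and all 15 motifs and 12 promoters examined are counted. Alternatives were another pseudocount, other filters, fewer groups, limma-voom on recovered reads, array weights, other scalings and each library left out. Results for some genes are not reported here.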

Additional observations from a re-analysis of the deposited data

Results flagged for a closer look

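Among 374 groups of 4 libraries tested, 33 had 1 library far from the other 3 by Dixon's criterion, where chance gives about 5%. In Fcgr2b-/- kidney these were, in CPM, Dnase1 at 91.8 and no other library above 26.2 (library 2), Pigr at 182 (library 3), Dusp6 at 86.5 (library 4), Krt8 at 186 (library 3), Cxcl5 at 39.9 against 2.74 to 5.29 (library 3), Col4a3 at 28.6 against 65.6 to 67.2 (library 4), Selp at 4.44 (library 3) and Xbp1 at 286 (library 1).

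In the double mutant, library 4 stood apart in mean log2(CPM + 1) of the iRhom and ADAM17 list (5.26), collecting duct (6.51), type I interferon (3.97), complement (4.25) and mitochondrially encoded genes (9.98), and in its mitochondrial share (14.3%). In CPM, library 4 stood apart for Slc22a7 (187), Cmpk2 (23.8), Top2a (2.64), mt-Co1 (47282), mt-Cytb (32474), Sox9 (0.841), Nfkb2 (19.1), Atp6v0a4 (524), Trem2 (0.771) and Mcm2 (12.5). Double-mutant library 1 did so for Krt19 (12), Slc12a3 (337), S100a9 (11.6), Adipoq (14.5), Upk1b (7.3), Nrg1 (7.33), Xbp1 (180), Krt5 (8.02) and Upk3a (9.65).

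By limma 3418 genes had an interaction, which cannot be told apart from lane. Among them were 21 tubular injury, 9 acute-phase, 13 ERK, 13 immediate early and stress, 17 matrix and 15 proximal tubule genes.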

How the results depend on the processing

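Of 114 named genes called between double-mutant and Fcgr2b-/- kidney, 99 kept direction and call under every alternative counted and 0 changed sign. Many of them were named for large, separated or low-p differences in this same comparison. Their calls were therefore likely to hold, and the count does not stand for all 5578 called genes. The filter at a mean of 10 CPM was not counted for named genes, and the filter at 1 CPM removed no gene. Fitted with only the 2 groups compared, 3550 genes were called in place of 5578, and the list counts were 5 lower for chemokines, 7 lower for NF-kB, 3 called for collecting duct, 6 for podocyte, 2 for macrophage and 0 for dendritic cell genes, 2 lower for fat, adrenal and urothelium, 4 higher for type I interferon, 3 higher for interferon GTPase and 2 lower for proliferation. Against wild-type the count was 519 with a mean of at least 10 CPM (an alternative chosen after seeing the data), 479 by limma-voom on recovered reads and 3934 with array weights, with 51.4, 49.5 and 44.8% of them higher against 62%. With only the 2 groups compared it was 1088, of which 38.2% were higher. With array weights 14 interferon GTPase genes and 1 T and NK cell gene were called and 1 fat, adrenal and urothelium gene fell, and by the authors' deposited table the numbers were 16 interferon GTPase, 1 MHC class II, 3 T and NK cell, 7 B and plasma cell and 2 fat, adrenal and urothelium genes. The cause of these differences was not tested, beyond the smaller number of samples or genes.

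With 1 library left out, the count against wild-type ranged from 121 to 1706, chemokines lower from 7 to 14, collecting duct from 3 to 8, type I interferon higher from 5 to 21, interferon GTPase higher from 6 to 21, MHC class II from 0 to 9, macrophage from 2 to 9, dendritic cell from 1 to 2, neutrophil from 0 to 1, T and NK cell from 0 to 8, B and plasma cell from 3 to 8, complement lower from 4 to 7, proliferation lower from 3 to 11 and fat, adrenal and urothelium from 2 to 6. Differences that changed sign all missed the test. With 1 library left out they ranged from -0.81 to 0.4 for Serpina3g, -0.29 to 0.56 for Clec12a, -0.61 to 0.13 for Tnf, -0.69 to 0.12 for C4b, -0.72 to 0.08 for Top2a, -0.05 to 0.23 for Cfb, -0.11 to 0.24 for Ehd3 and -0.32 to 0.53 for Itgax, and the highest value of Serpina3g, Clec12a, Tnf, C4b, Top2a and Itgax came without double-mutant library 4. With array weights Ehd3 was at -0.14 and Itgax at 0.43. Itgax was at 0.05 by limma-voom and 0.01 after median centring, and the authors' deposited table had 0.17 for it and 0.14 for Serpina3g. No paired analysis was possible because the replicate numbers were given in accession order and the titles share no numbers between groups.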
